A study of Arabidopsis thaliana with 12 samples.

Results

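Rose Bengal (RB) at 100 µM was compared with RB at 10 µM in seedlings of Arabidopsis thaliana, to ask what the higher dose added to the lower one. The comparison used 6 of the 12 libraries of the series, 3 at each dose, chosen by their labelled dose, and it took in all 13307 genes of the count table. Both groups were whole seedlings of the Col-0 wild type, 2 weeks old, which had been kept in water and were then moved into RB and left in the light (30 µE) for 2 h. They carried no mutation or transgene, and the only labelled difference in treatment between them was the dose. Each library also has a code of a digit and a letter in its label. These codes run in order of dose and replicate. What they stand for is not stated, and a difference tied to them cannot be separated from one of dose. The study's own list of data sets names this series for DCMU, an inhibitor of photosynthesis, while the labels of every sample name RB, and the labels were followed. The other 6 libraries, 3 at 0 µM and 3 at 400 µM of the same experiment, shared the fit and are given where they help to place a value.

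RB is a dye that takes up visible light and passes the energy on to oxygen, which gives singlet oxygen. This reactive form of oxygen attacks lipids, proteins and the guanine bases of nucleic acids close to where it is made. Plant cells under such oxidation are known to raise transcription factors of the ERF, WRKY and zinc finger families, enzymes of jasmonate synthesis, detoxifying enzymes and protein chaperones.

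Libraries are called by dose and letter, with 10a, 10b and 10c for replicates 1, 2 and 3 at 10 µM, 100a, 100b and 100c for those at 100 µM, and so on. The 6 libraries held 1499791 to 3608636 reads in genes. Levels are given as CPM, read counts scaled to a common library size after normalization by the trimmed mean of M-values (TMM), whose factors ran from 0.906 to 1.08. Reads came from the 3′ ends of transcripts, so values compare doses within a gene and not 1 gene with another, and the deposited counts are labelled as made without a filter on molecular identifiers, so copies made by PCR may count as separate reads. Once the mean of each dose was taken off, the first principal component of the 6904 genes that averaged 10 CPM or more took 33.4% of the variance, and the next took 14.6%. Its score was 0.363 for 10a and 0.654 for 100a, and lay between −0.383 and −0.15 for the other 4 libraries. Shoot and root transcripts were both present, as the label of whole seedlings has it. The 15 light-harvesting genes summed to 12479 to 14895 CPM at 10 µM and 13642 to 14924 CPM at 100 µM, and the 12 root transport and endodermis markers to 2138 to 2309 CPM and 1781 to 1827 CPM. In such whole-seedling RNA, fewer cells of a type and less RNA per cell cannot be told apart. The labels do not say whether replicates were separate cultures or plates, so a p-value here weighs a difference against the spread of these samples, which may be technical.

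At 100 µM, 396 genes were higher than at 10 µM, which is 2.98% of the 13307 tested, and 199 were lower, which is 1.50% (edgeR quasi-likelihood test, Benjamini-Hochberg adjusted p under 0.05). The median log2 fold change was 0.87 over the genes called higher, −1.76 over those called lower and −0.02 over all genes tested. Counts given below for gene lists are to be read beside the shares of 2.98% higher and 1.50% lower. How many of all genes had doses that did not overlap was not counted. Non-overlap therefore describes the libraries of a gene and is no further test. The rises and the falls did not hold up alike when single libraries were left out. Of the 396 higher genes, 162 were called in each of the 6 fits that left out 1 library, while 14 of the 199 lower genes were. The count of higher genes ran from 203 without 100c to 698 without 100a, and was 214 without 100b, 270 without 10a and 259 without 10c. The count of lower genes was 38 without 10a, 21 without 100b, 23 without 100c and 832 without 100a. Without 10a, 100a and 400b, the libraries with the highest scores on the component above, 580 genes were called higher (4.48% of 12955) and 608 lower (4.69%). Those 3 were picked by their deviation in these same data, a choice that by itself can narrow the spread and add calls. Scaling by library totals in place of TMM moved the median of all genes to −0.18 and gave 225 higher and 348 lower genes, so that higher genes made up 39.3% of the calls in place of 66.6%.

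**Figure D1:**
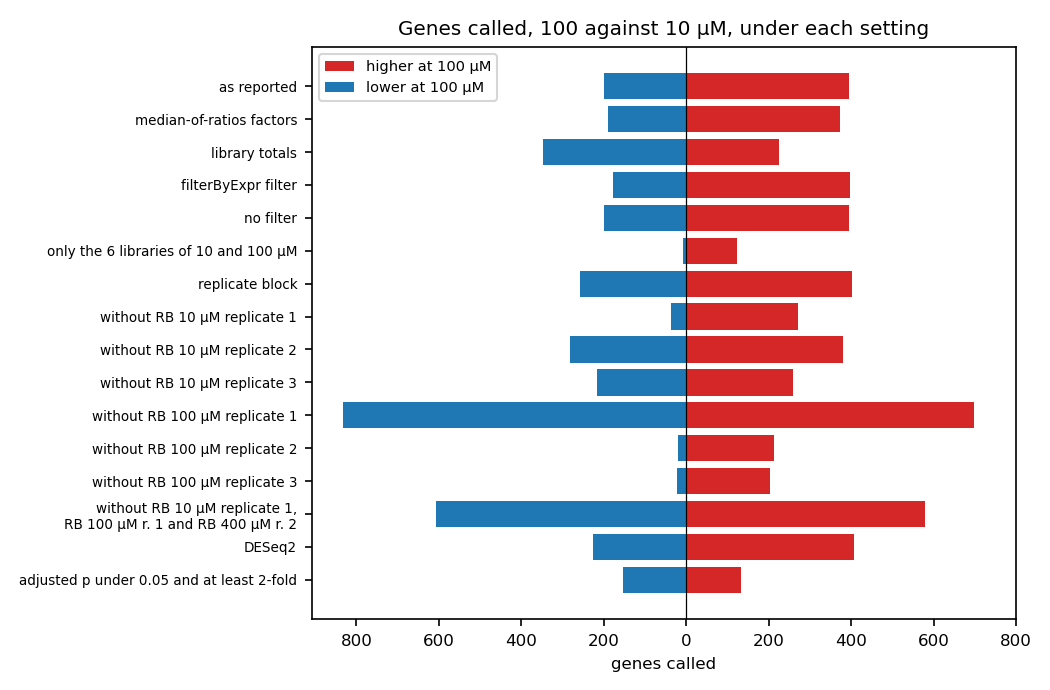
Genes called higher (red, to the right) and lower (blue, to the left) at 100 µM against 10 µM under each setting tried; bar lengths are numbers of genes at an adjusted p under 0.05. The reported fit called 396 higher and 199 lower, and leaving out 10a, 100b or 100c shortened the blue bar to between 21 and 38 genes.

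Among the 15 largest rises were a secreted peroxidase, ERF transcription factors, F-box proteins of the phloem lectin family, a glutathione transferase and a small heat shock protein, with log2 fold changes from 1.60 to 3.25. The naming rule took only genes whose libraries at the 2 doses did not overlap and whose higher group averaged 10 CPM or more. The largest rise under that rule was that of AT1G14550, a secreted class III peroxidase by its annotation, whose level was 1.06, 1.05 and 1.85 CPM in the 3 libraries at 10 µM and 9.66, 13.5 and 13.4 CPM at 100 µM. All 3 libraries at 100 µM were several-fold above the highest at 10 µM, and the log2 fold change was 3.25 ± 0.41 (SE, n = 3 per dose, adjusted p = 0.000148). RRTF1 (AT4G34410, also known as ERF109), a transcription factor of the ERF family named for its response to redox state, measured 10.2, 6.82 and 3.69 CPM at 10 µM and 40.4, 49.1 and 64.4 CPM at 100 µM. Its log2 fold change was 2.81 ± 0.27 (adjusted p = 2.2e-05), and the lowest library at 100 µM stood well above the highest at 10 µM. ERF13 (AT2G44840), another factor of that family, rose from 34.9, 30.2 and 20.3 CPM to 108, 120.2 and 166 CPM, a log2 fold change of 2.17 ± 0.21.

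A pair of neighbouring genes for F-box proteins with a phloem lectin domain rose together. PP2-B13 (AT1G56240) measured 16.2, 17.1 and 15.4 CPM at 10 µM and 70.5, 87.6 and 99.3 CPM at 100 µM, with a log2 fold change of 2.39 ± 0.20 (adjusted p = 8.39e-06), and reached 144 to 197 CPM at 400 µM. PP2-B14 (AT1G56250) measured 5.64, 5.77 and 6.15 CPM and 16.1, 30.5 and 26.7 CPM, a log2 fold change of 2.05 ± 0.27. The libraries at 10 µM lay close together for both genes and none reached a library at 100 µM. Whether reads were shared between these related genes was not tested. The other 3 measured genes of the PP2-B list were not called.

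GSTU12 (AT1G69920), a glutathione transferase of the tau class, which joins glutathione to reactive compounds, measured 35.2, 31.5 and 17.2 CPM at 10 µM and 103, 95.1 and 156 CPM at 100 µM (log2 fold change 2.03 ± 0.25, adjusted p = 0.000118). HSP18.2 (AT5G59720), a small heat shock protein, measured 40.2, 31 and 17.2 CPM and 94.8, 138 and 135 CPM (log2 fold change 2.01 ± 0.25). RABA2b (AT1G07410), a small GTPase of membrane traffic, measured 10.2, 2.36 and 7.38 CPM and 35.4, 33.1 and 29.6 CPM (log2 fold change 2.36 ± 0.42, adjusted p = 0.00262). In each of these 3 genes the lowest library at 100 µM was more than 2 times the highest at 10 µM. GAD4 (AT2G02010), a glutamate decarboxylase that makes the amino acid GABA, rose by 1.62 ± 0.22 on the log2 scale, and AT5G19110, an aspartyl protease by its annotation, by 1.60 ± 0.20. The remaining 5 of the 15 were AT2G32130, AT1G26730, AT2G25460, AT5G58680 and AT1G53625, with log2 fold changes from 1.60 to 1.80.

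Of the 15, 14 kept their call whichever of the 6 libraries was left out. The exception was AT1G26730, annotated as an EXS family protein, at 3.52, 3.94 and 0.615 CPM and 7.87, 10.5 and 11.9 CPM (adjusted p = 0.0481), whose adjusted p ran from 0.0215 to 0.165 over the 6 fits and was under 0.05 only without 100a.

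**Figure D2:**
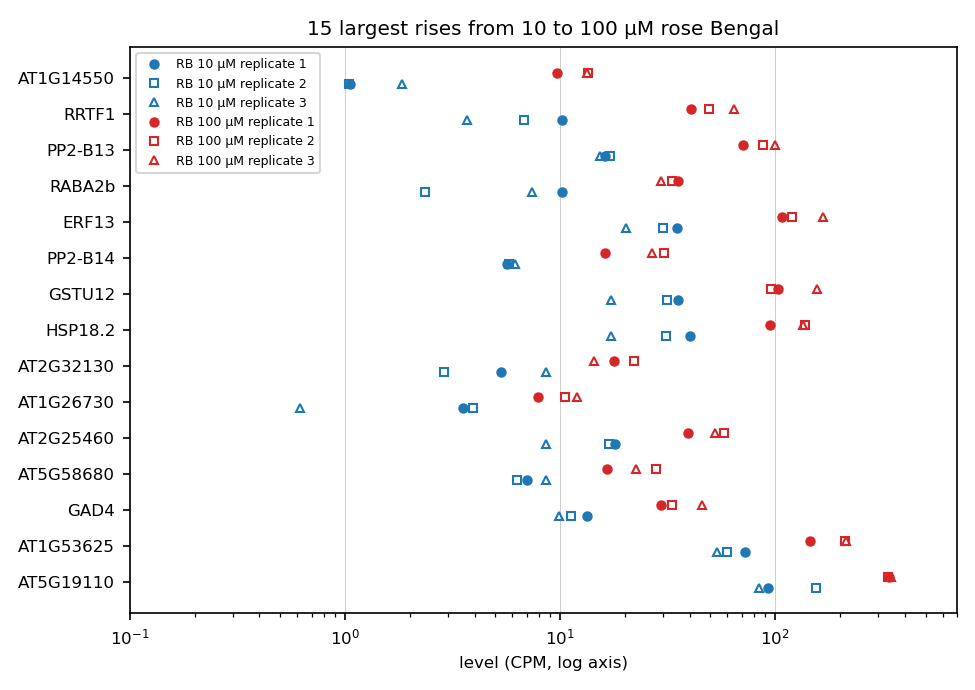
Levels (CPM, log axis) of the 15 genes with the largest rises, in each library at 10 µM RB (blue) and 100 µM RB (red), with the replicate shown by the shape of the point. In every row the red points lie to the right of the blue ones; AT1G14550 at the top has the largest log2 fold change, 3.25.

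The 250 bases before the start of 4 of these 15 genes are shown as examples. No rule chose the 4 and they are not the 4 largest rises, so what they share cannot be read as a trait of the 15. They are from RefSeq's TAIR10.1 assembly, written 5′ to 3′ on the gene's own strand, and capitals mark the letters TTGAC, the core that WRKY transcription factors bind, or its reverse complement. They cover chr4:16451626-16451875 (plus strand) for RRTF1, chr2:18494965-18495214 (plus strand) for ERF13, chr1:26335631-26335880 (minus strand) for GSTU12 and chr1:21063048-21063297 (minus strand) for PP2-B14.
RRTF1: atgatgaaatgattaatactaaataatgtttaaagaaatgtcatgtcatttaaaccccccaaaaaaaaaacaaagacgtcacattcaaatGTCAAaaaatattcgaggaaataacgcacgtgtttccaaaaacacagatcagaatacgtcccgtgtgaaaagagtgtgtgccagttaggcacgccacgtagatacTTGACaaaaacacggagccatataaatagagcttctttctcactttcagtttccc
ERF13: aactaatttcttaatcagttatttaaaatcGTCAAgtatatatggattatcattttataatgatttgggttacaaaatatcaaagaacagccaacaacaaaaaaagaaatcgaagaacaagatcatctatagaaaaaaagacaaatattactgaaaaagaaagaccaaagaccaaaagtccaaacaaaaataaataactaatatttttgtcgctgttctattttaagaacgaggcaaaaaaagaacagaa
GSTU12: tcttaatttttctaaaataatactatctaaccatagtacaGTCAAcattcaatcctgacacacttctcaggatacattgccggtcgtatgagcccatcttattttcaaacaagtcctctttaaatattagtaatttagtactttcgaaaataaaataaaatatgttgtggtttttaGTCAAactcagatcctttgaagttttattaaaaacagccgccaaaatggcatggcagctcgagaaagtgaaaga
PP2-B14: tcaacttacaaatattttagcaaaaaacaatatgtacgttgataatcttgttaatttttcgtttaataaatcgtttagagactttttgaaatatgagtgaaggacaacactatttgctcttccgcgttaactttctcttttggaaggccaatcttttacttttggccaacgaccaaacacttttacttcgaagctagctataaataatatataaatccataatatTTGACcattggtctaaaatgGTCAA
TTGAC was found 2 times before RRTF1, 160 and 55 bases from the start, once before ERF13, 220 bases from it, 2 times before GSTU12, at 210 and 74 bases, and 2 times before PP2-B14, at 25 and 5 bases. None of these matches overlapped another and none of the windows held an exon of another gene. The motif stood on either strand in 45.4% of the 13214 windows of tested genes, in 54.1% of the 392 windows of genes called higher and in 44.2% of those called lower. The heat shock element, searched as GAANNTTC or TTCNNGAA, the core that heat shock factors bind, was in none of the 4 windows. It was found in 15.8% of all windows, in 22.7% of those of genes called higher and in 42.9% of those of the 14 small heat shock protein genes (6 windows) and in 6.67% of those of the 15 larger chaperones of the HSP100, HSP90 and HSP70 families (1 window). These shares describe letters in a window and do not show binding.

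Heat shock proteins are chaperones that hold or refold damaged proteins. Most of their response was in place at 10 µM, and the step to 100 µM added a smaller rise in some members. Of 14 small heat shock protein genes, 5 rose from 10 to 100 µM, none fell, and the median log2 fold change was 0.75, against −0.02 over all genes. Their summed level was 423 to 455 CPM at 0 µM, 5289 to 8994 CPM at 10 µM, 10191 to 11958 CPM at 100 µM and 8014 to 8365 CPM at 400 µM. Those at 100 µM were above those at 10 µM and at 400 µM with no overlap. AT1G53540, an HSP20-like chaperone, measured 21, 20.6 and 23.9 CPM at 0 µM, 679, 395 and 471 CPM at 10 µM and 1148, 1511 and 1238 CPM at 100 µM. Its rise over the last of these steps was 1.33 ± 0.17 (adjusted p = 0.000124). HSP17.4 (AT3G46230) rose by 0.92 ± 0.15 and HSP17.6A (AT5G12030) by 0.82 ± 0.16, from 1737, 997 and 1203 CPM to 2175, 2359 and 2429 CPM. AT1G59860, another HSP20-like chaperone, did not go with them: it measured 541, 362 and 407 CPM at 10 µM and 372, 414 and 372 CPM at 100 µM, the doses overlapped, and the log2 fold change was −0.18 ± 0.16 (adjusted p = 0.603), with a sign that turned without 10a, 100a and 400b, to 0.034. The list's count of 5 ran from 4 to 7 when single libraries were left out.

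Of 15 genes for the larger chaperones of the HSP100, HSP90 and HSP70 families, 3 rose. The median log2 fold change of this list was 0.06, against −0.02 over all genes. HSP101 (AT1G74310), which pulls proteins out of aggregates, measured 784, 444 and 616 CPM at 10 µM and 1297, 1371 and 1335 CPM at 100 µM (log2 fold change 1.12 ± 0.15, adjusted p = 0.00036). Hsp70b (AT1G16030) measured 128, 90 and 78.1 CPM and 312, 256 and 282 CPM (log2 fold change 1.52 ± 0.20). All libraries at 100 µM were above all at 10 µM for both. HSP70 (AT3G12580) rose by 0.58 ± 0.14, a call whose adjusted p ran from 0.00797 to 0.105 when single libraries were left out and which was lost without 10b, 100b or 100c. Among 11 co-chaperones 3 rose, 1 to 3 did when single libraries were left out, and the median log2 fold change was 0.18. J2 (AT5G22060), a DNAJ partner of HSP70, rose by 0.72 ± 0.12, a call kept whichever of the 6 libraries was left out. HOP3 and HOP2, which link HSP70 to HSP90, rose by 0.75 ± 0.17 and 0.75 ± 0.19. HOP3 lost its call without 100b, and HOP2 without 10a, 10c, 100b or 100c (adjusted p from 0.00121 to 0.0977 and from 0.00425 to 0.153).

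Heat shock factors switch these chaperone genes on. Of 15 measured factors 2 rose, HSFB1 (AT4G36990) from 462, 360.4 and 349 CPM to 638, 738 and 768 CPM (log2 fold change 0.87 ± 0.13, adjusted p = 0.000806) and HSFB2A (AT5G62020) by 0.76 ± 0.17. Both belong to the class B factors, which lack the activating domain of class A. The count of factors that rose ran from 1 to 4 over the fits that left out 1 library. The call of HSFB2A was lost without 10b, 100b or 100c (adjusted p from 0.00766 to 0.0799). HSFA2 (AT2G26150), the class A factor best known for sustaining the heat response, measured 3.23, 1.9 and 2.17 CPM at 0 µM, 104, 44.3 and 79.4 CPM at 10 µM and 119, 135 and 115 CPM at 100 µM. Its libraries at 100 µM were above those at 10 µM, but the log2 fold change of 0.71 ± 0.22 did not pass the test (adjusted p = 0.0705, and from 0.00937 to 0.226 over the fits that left out a library).

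A second test asked for which genes the step from 10 to 100 µM differed from the step from 0 to 10 µM. The 10 µM libraries enter both steps with opposite signs, so an error in their level moves both. The step to 100 µM was the larger one in 8 genes (0.0601% of those tested) and the smaller, or the more negative, in 105 (0.789%). Among the 105 were 10 of the 14 small heat shock protein genes, 5 of the 15 larger chaperones and 6 of the 11 co-chaperones. Over the fits that left out 1 library these counts ran from 9 to 11, from 3 to 10 and from 2 to 6. The median difference between the steps was −3.22 on the log2 scale over the small heat shock proteins and −0.03 over all genes. The difference was −3.23 ± 0.29 for AT1G53540 (adjusted p = 2.65e-06), −3.97 ± 0.27 for HSP17.6A, −3.21 ± 0.27 for HSP101 and −4.23 ± 0.46 for HSFA2 (adjusted p = 2.87e-05). AT1G59860 had −4.99 ± 0.29 (adjusted p = 1.42e-08). These 5 differences passed the test whichever of the 6 libraries at 10 and 100 µM was left out, and the 0 µM libraries, which enter the first step, were not left out. HSP18.2, which measured 4.44, 11.1 and 8.68 CPM at 0 µM, had a step difference of 0.14 ± 0.50 and was not called (adjusted p = 0.946). Of the 396 genes called higher at 100 µM, the step difference was called smaller in 24 and larger in 6.

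**Figure D3:**
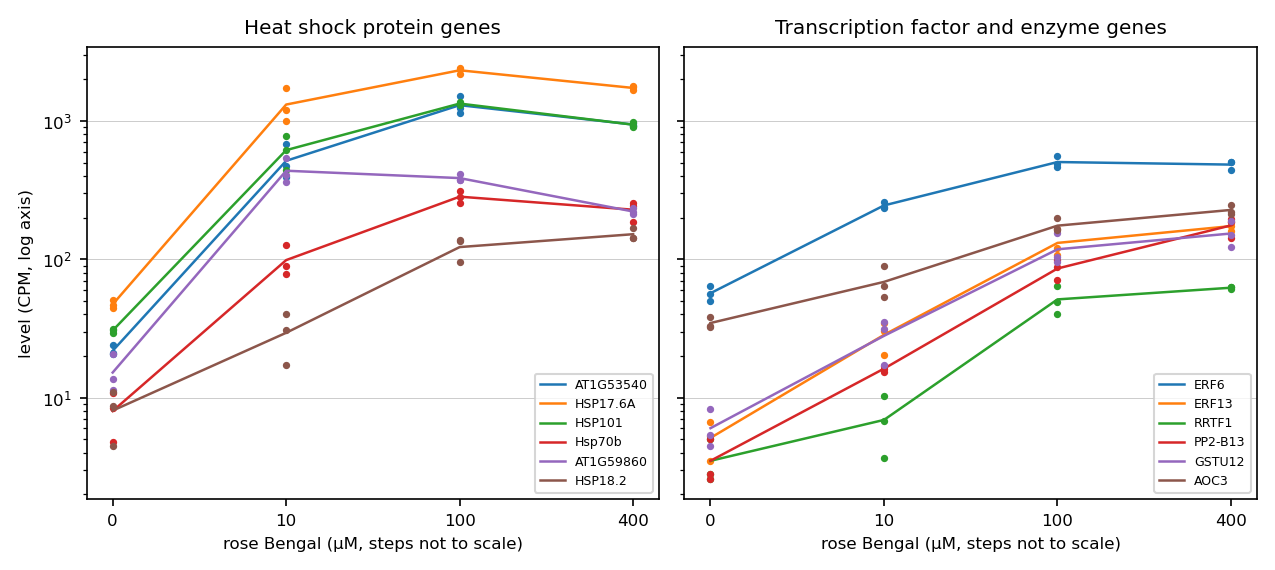
Levels (CPM, log axis) of 6 heat shock protein genes (left) and 6 other genes (right) at 0, 10, 100 and 400 µM RB, with 1 point per library and a line through the dose means; doses are evenly spaced and not to scale. The lines of most heat shock genes climb most between 0 and 10 µM and AT1G59860 does not climb further, while RRTF1 climbs most between 10 and 100 µM.

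Stress transcription factors made up a further group of rises. Of 32 measured AP2/ERF factors 9 rose (28.1%, against 2.98% of all genes tested) and none fell, with a median log2 fold change of 0.42. Besides RRTF1 and ERF13, ERF6 (AT4G17490), which acts downstream of MAP kinases in oxidative stress, measured 235, 241 and 259.6 CPM at 10 µM and 466, 490.3 and 557 CPM at 100 µM (log2 fold change 1.04 ± 0.13, adjusted p = 0.000118). ERF11 (AT1G28370), a repressor of the same family, rose by 1.30 ± 0.22. The count of 9 ran from 5 to 13 when single libraries were left out.

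Of 10 zinc finger factors of the ZAT and AZF group, 4 rose. ZAT12 (AT5G59820), a regulator of the response to reactive oxygen, measured 417, 401 and 399.9 CPM at 10 µM and 791, 1080.2 and 1104 CPM at 100 µM, with the doses far apart and a log2 fold change of 1.29 ± 0.20 (adjusted p = 0.000872). ZAT6 (AT5G04340) rose by 0.84 ± 0.13 and ZAT10 (AT1G27730) by 0.82 ± 0.13, each kept in every fit with 1 library left out. AZF2 (AT3G19580) rose by 0.78 ± 0.20, a call lost without 10a, 10c or 100c (adjusted p from 0.00746 to 0.175).

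WRKY factors regulate defence genes. Of 16 measured, 3 rose, a count that ran from 2 to 5 when single libraries were left out, with WRKY40 (AT1G80840) from 146, 171 and 138 CPM to 310.1, 297 and 402 CPM (log2 fold change 1.14 ± 0.19), WRKY11 (AT4G31550) by 0.89 ± 0.16 and WRKY15 (AT2G23320) by 0.71 ± 0.15. The list's median log2 fold change was 0.46. WRKY15 lost its call without 10a or 100b (adjusted p from 0.00132 to 0.094), and the other 2 kept theirs in all 6 fits. Of 12 NAC factors tied to stress 3 rose, a count that ran from 1 to 3 when single libraries were left out, and ATAF1 (AT1G01720) was the one that kept its call throughout, with 222, 255 and 209 CPM at 10 µM, 352, 400.1 and 439 CPM at 100 µM and a log2 fold change of 0.79 ± 0.13 (adjusted p = 0.00172).

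**Figure D4:**
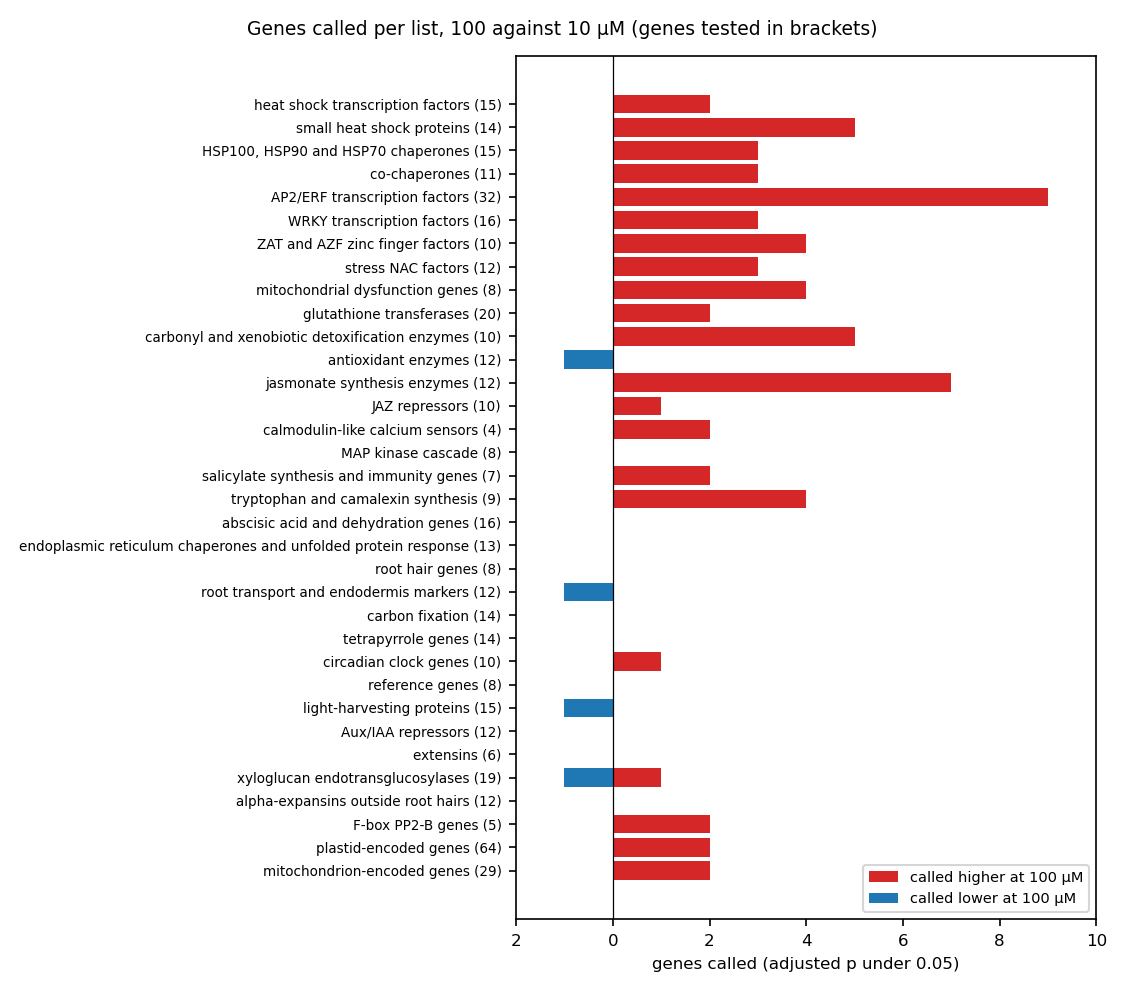
Number of genes called higher (red, right) and lower (blue, left) at 100 µM against 10 µM in each gene list, with the number of genes tested in brackets. AP2/ERF factors (9 of 32) and jasmonate synthesis enzymes (7 of 12) have the longest red bars, and none of the lists drawn has more than 1 gene called lower. Over all genes tested 2.98% were called higher and 1.50% lower.

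Of 12 measured enzymes of jasmonate synthesis 7 rose from 10 to 100 µM, none fell, and the median log2 fold change was 0.74. The count ran from 5 to 7 when single libraries were left out. Jasmonate is made in the plastid and the peroxisome from linolenic acid. LOX3 (AT1G17420) and LOX4 (AT1G72520), lipoxygenases of the first step, rose by 1.22 ± 0.21 and 1.31 ± 0.21. AOC3 (AT3G25780), an allene oxide cyclase, measured 88.8, 53.3 and 64 CPM at 10 µM and 162, 165 and 199 CPM at 100 µM (log2 fold change 1.35 ± 0.17, adjusted p = 0.000148). OPR3 (AT2G06050), the reductase of the peroxisomal part, measured 90.9, 111 and 99 CPM and 180.3, 178 and 193 CPM (log2 fold change 0.87 ± 0.13, adjusted p = 0.000735). The lowest library at 100 µM was above the highest at 10 µM for all 4, and each kept its call in every fit with 1 library left out. No member of the list had a step difference that passed the test. Of 10 JAZ genes, the repressors that jasmonate signalling removes, JAZ5 (AT1G17380) rose, by 1.19 ± 0.21, and the other 9 were not called.

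In the synthesis of tryptophan and of camalexin, a defence compound made from it, 4 of 9 genes rose, none fell and the median was 0.65. PAD3 (AT3G26830), the last enzyme of camalexin synthesis, measured 64.1, 86.8 and 67.1 CPM at 10 µM and 152, 159 and 212 CPM at 100 µM, with no overlap and a log2 fold change of 1.25 ± 0.21 (adjusted p = 0.0017). TSB1 (AT5G54810) and TSA1 (AT3G54640), the subunits of tryptophan synthase, rose by 0.78 ± 0.13 and 0.67 ± 0.13. CYP79B2 (AT4G39950), which draws on tryptophan, rose by 0.65 ± 0.17, a call held only without 100a among the fits that left out 1 library (adjusted p from 0.005 to 0.147).

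Of 7 genes of salicylate synthesis and immunity 2 rose, and 1 or 2 did when single libraries were left out. EDS5 (AT4G39030), which carries the precursor of salicylate out of the plastid, measured 26.1, 29.6 and 31.4 CPM and 59.7, 60.1 and 60.6 CPM (log2 fold change 1.06 ± 0.18). CBP60G (AT5G26920), a calmodulin-binding factor of the same pathway, rose by 0.97 ± 0.20 and lost its call without 100b (adjusted p from 0.000803 to 0.0581). Of 4 measured calmodulin-like calcium sensors 2 rose, TCH3 and CML37 (AT5G42380), and the list's median log2 fold change was 0.03. When single libraries were left out, 1 or 2 rose and 0 to 2 fell. CML9 and CML41 were lower but not called, at −0.83 ± 0.36 and −2.07 ± 0.64. TCH3 (AT2G41100), a calmodulin-like protein also raised by touch, measured 3282, 2467 and 3271 CPM at 10 µM and 4769, 5887 and 6110.4 CPM at 100 µM (log2 fold change 0.89 ± 0.14, adjusted p = 0.000852), and its doses did not overlap. None of the 8 measured genes of the MAP kinase cascade and none of the 16 genes of abscisic acid and dehydration was called, with medians of 0.38 and 0.21.

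Genes that rise when mitochondria are disturbed were higher in 4 of 8 cases, a count that ran from 2 to 4 when single libraries were left out. DIC2 (AT4G24570), a dicarboxylate carrier of the inner mitochondrial membrane, measured 114, 85.8 and 85.5 CPM at 10 µM and 204, 230.4 and 230.0 CPM at 100 µM (log2 fold change 1.21 ± 0.14, adjusted p = 9.77e-05). NDB2 (AT4G05020), an alternative NAD(P)H dehydrogenase, measured 27.1, 24.7 and 24 CPM and 49.4, 57.6 and 55.4 CPM (log2 fold change 1.09 ± 0.20). Both kept their call in every fit with 1 library left out, and their doses did not overlap. DIC1 (AT2G22500) and AOX1D (AT1G32350), an alternative oxidase, rose by 0.82 ± 0.18 and 0.90 ± 0.22. DIC1 lost its call without 100b or 100c and AOX1D without 10b, 10c, 100b or 100c (adjusted p from 0.00042 to 0.0762 and from 0.00654 to 0.119).

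Detoxifying enzymes were higher in part. Of 10 enzymes that act on carbonyls and foreign compounds 5 rose, a count that ran from 1 to 5 when single libraries were left out. UGT73B5 (AT2G15480), a glucosyltransferase, measured 132, 110.4 and 106 CPM at 10 µM and 227, 256 and 264 CPM at 100 µM, with no overlap (log2 fold change 1.10 ± 0.13, adjusted p = 0.000118). Of 20 glutathione transferases GSTU12 and GSTU13 (AT1G27130) rose, the second by 0.60 ± 0.12, and the median of the list was 0.37.

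Of 12 classical antioxidant enzymes none rose. FSD1 (AT4G25100), the iron superoxide dismutase, fell from 745, 812 and 705 CPM at 10 µM to 565, 375 and 453 CPM at 100 µM (log2 fold change −0.70 ± 0.14, adjusted p = 0.00852). Its doses did not overlap, and the adjusted p was 0.0518 without 100b. The median of the list was −0.01.

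Of the marker genes followed in the study, 4 stand for singlet oxygen. BAP1 (AT3G61190), a membrane-binding protein that restrains cell death, measured 149, 118 and 113 CPM at 10 µM and 188, 242 and 268 CPM at 100 µM, with no overlap (log2 fold change 0.87 ± 0.16, adjusted p = 0.00294). AT5G13200, a GRAM domain protein, measured 29.2, 35.9 and 47.4 CPM and 70.5, 78.6 and 72.1 CPM (log2 fold change 0.99 ± 0.18, adjusted p = 0.00338). Both kept their call whichever of the 6 libraries was left out. The count of singlet oxygen markers called ran from 2 to 4 over those fits. AT5G64870, a membrane protein of the SPFH family, measured 16.9, 8.92 and 9.84 CPM and 24, 31.5 and 26.7 CPM and did not pass the test (adjusted p = 0.0558), although its doses did not overlap. AT3G01830, a calcium-binding protein, had reads in 1 of the 3 libraries at 10 µM, at 1.76 CPM, and measured 4.29, 3.51 and 3.82 CPM at 100 µM (adjusted p = 0.0877). Leaving out single libraries moved these 2 p-values from 0.0262 to 0.186 and from 0.00937 to 0.209.

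Of the 4 markers that the study uses for superoxide, 3 were measured and none of these was called. FER4 (AT2G40300) was not in the count table. FER1 (AT5G01600), a ferritin that stores iron in plastids, measured 501, 403 and 483 CPM at 10 µM and 508, 621 and 478 CPM at 100 µM, and the doses overlapped (log2 fold change 0.21 ± 0.14, adjusted p = 0.41). AT4G21870, an HSP20-like chaperone, was low at 4.58, 6.56 and 6.15 CPM at 10 µM and 6.8, 1.5 and 2.39 CPM at 100 µM (log2 fold change −0.61 ± 0.48, adjusted p = 0.524). MYBL2 (AT1G71030), a repressor of flavonoid synthesis, measured 3.52, 0.787 and 0.615 CPM and 0.715, 2 and 1.43 CPM, and its log2 fold change of −0.33 ± 0.76 became 0.81 without 10a and 0.01 without 100a. The doses overlapped for both genes.

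The 8 genes whose step to 100 µM was larger, or less negative, than the step to 10 µM are named here after their values were seen. PCK2 (AT5G65690), a phosphoenolpyruvate carboxykinase that leads carbon towards sugar, measured 24.6, 38.6 and 25.2 CPM at 0 µM, 29.6, 27.3 and 27.7 CPM at 10 µM and 78.3, 71.1 and 90.7 CPM at 100 µM. The libraries at 0 and 10 µM overlapped and those at 100 µM lay above both, with a log2 fold change of 1.50 ± 0.18 from 10 to 100 µM and a step difference of 1.58 ± 0.33 (adjusted p = 0.0245). AT2G32150, a hydrolase of the haloacid dehalogenase family, measured 465, 472 and 543 CPM, 515, 427 and 457 CPM and 897, 1102 and 1126 CPM at these doses, with a step difference of 1.24 ± 0.24 (adjusted p = 0.0167). It was the only one of the 8 that passed the test of the steps in all 6 fits with 1 library left out.

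AT1G80440, a kelch repeat protein, ASPGB1 (AT3G16150), an asparaginase, U3D (AT5G54075), a small nucleolar RNA, and ATMG01390, encoded in the mitochondrion, also had larger second steps. Their step differences lay between 1.15 and 1.35, and each rose from 10 to 100 µM, by 0.68 ± 0.15, 0.87 ± 0.18, 1.06 ± 0.16 and 0.77 ± 0.13. The rise of AT1G80440 was lost without 100b (adjusted p = 0.09). Whether reads of U3D were shared with other copies of U3 was not tested. The remaining 2 were extensin-like cell wall proteins that started high. AT3G54580 measured 116, 133 and 137 CPM at 0 µM, 20.8, 24.1 and 20.9 CPM at 10 µM and 15, 12 and 9.07 CPM at 100 µM, and AT5G06630 62.2, 58.9 and 62.1 CPM, 7.4, 11.3 and 6.77 CPM and 5.01, 6.51 and 6.68 CPM. Most of the loss of both lay below 10 µM. In the fits that left out 1 library, the largest adjusted p of the step difference was 0.3 for AT1G80440, 0.164 for ASPGB1, 0.451 for U3D, 0.164 for ATMG01390, 0.163 for PCK2, 0.285 for AT3G54580 and 0.186 for AT5G06630.

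Most genes called lower had their highest level in a single library. This was 10a, the highest of the 6 libraries in 165 of the 199 lower genes (82.9%). The code in the label of 10a has the digit of the 0 µM libraries. The other libraries at 10 and 100 µM share a different digit. Whether the code is tied to the levels in 10a was not tested. A gene called lower is by that call higher at 10 µM, so 10a is set beside the other libraries of its dose, of which 10b was the highest in 23 of the 199 and 10c in 11. Over all 13307 genes tested 10a was the highest of the 6 in 23.3%, 10b in 11.7% and 10c in 14.2%, and over the 6677 genes that were lower at 100 µM but not called these shares were 41.0%, 19.8% and 23.9%. In 67 of the 199 lower genes 10a was at least 2 times both other libraries of its dose. Among genes that averaged 10 CPM or more it was so in 37 of the lower ones and in 114 of all 6904. AT2G37600, a protein of the large ribosomal subunit, had the largest fall under the naming rule, from 65.2, 19.4 and 8 CPM to 5.37, 2 and 0 CPM (log2 fold change −3.53 ± 0.76). PGY2 (AT1G33140), another ribosomal protein, measured 291, 105 and 70.7 CPM and 58, 6.51 and 9.07 CPM (log2 fold change −2.60 ± 0.62). For both, replicate 1 was the highest library within each dose, and their adjusted p ran from 0.00232 to 0.077 and from 0.000188 to 0.124.

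Of the 14 falls reported here from the naming rule, all but RNS1 lost their call without 10a, without 100b and without 100c. Besides those above they were ASP5, AT3G56010, AT1G42960, AT5G02960, AT4G25670, BZIP53, AT3G03990, AT4G29410, RPS28, ATP3 and DAC. Of the 126 lower genes that had a score on the component above, 90 (71.4%) were in the tenth of genes with the highest scores, against 3 (0.817%) of 367 higher genes. The component was drawn from the same libraries as the calls, and 10a scored high on it. These shares are therefore not independent of the calls. The part of this component in the falls was not tested further.

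RNS1 (AT2G02990), a secreted ribonuclease, was the fall among the 14 that kept its call in each of the 6 fits. It measured 66.6, 24.9 and 24 CPM at 10 µM and 7.15, 3 and 7.63 CPM at 100 µM, and the lowest library at 10 µM was more than 3 times the highest at 100 µM (log2 fold change −2.68 ± 0.42, adjusted p = 0.000981).

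**Figure D5:**
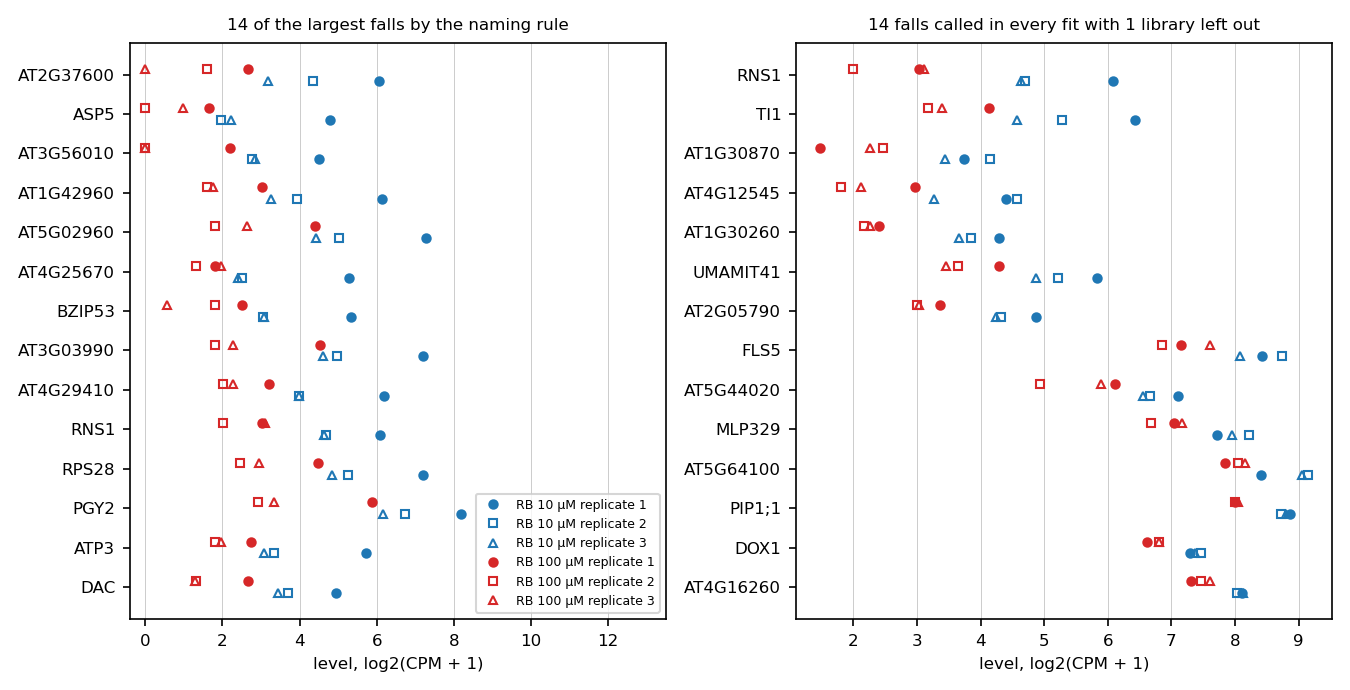
Levels, log2(CPM + 1), in each library at 10 µM RB (blue) and 100 µM RB (red) for 14 of the largest falls (left) and for the 14 falls called in every fit that left out 1 library (right); the shape of a point gives the replicate. On the left the filled blue circle, 10a, lies apart from the other blue points in most rows, as for PGY2 at 291 CPM. On the right it lies closer to them, as for PIP1;1 at 465 CPM, though not for RNS1. The genes on the right were chosen for keeping their call without 10a among other fits, so this contrast follows in part from the choice.

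The 14 falls that kept their call in every fit that left out 1 library are a set named after its values were seen. With only the 6 libraries of the 2 doses in the fit, 8 of the 199 lower genes kept their call. PIP1;1 (AT3G61430), a water channel of the plasma membrane, measured 465, 424 and 447 CPM at 10 µM and 256, 256 and 263 CPM at 100 µM. The libraries within a dose lay close together, the doses did not overlap, and the log2 fold change was −0.78 ± 0.13 (adjusted p = 0.00204). A pair of class III peroxidases fell, AT1G30870 from 12.3, 16.8 and 9.84 CPM to 1.79, 4.51 and 3.82 CPM (log2 fold change −2.03 ± 0.41) and AT5G64100 from 338, 565 and 529 CPM to 229, 262 and 285 CPM (log2 fold change −0.88 ± 0.18). At 0 µM they measured 52.9, 40.2 and 59.5 CPM and 1152, 1112 and 1563 CPM, above every library at 10 µM.

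FLS5 (AT5G63600), annotated as a flavonol synthase, measured 343, 428 and 269 CPM at 10 µM and 142, 115 and 194 CPM at 100 µM (log2 fold change −1.21 ± 0.18, adjusted p = 0.000828). DOX1 (AT3G01420), a dioxygenase that oxidises fatty acids, measured 157, 175 and 165 CPM and 96.9, 111 and 111 CPM (log2 fold change −0.64 ± 0.14). MLP329 (AT2G01530), a protein of the major latex family, measured 209, 298 and 247 CPM and 131, 102 and 143 CPM (log2 fold change −1.004 ± 0.16). None of these 3 genes had a library at 100 µM that reached the lowest at 10 µM. The other 8 were TI1 (AT2G43510), a trypsin inhibitor, AT4G12545, a lipid-transfer-like protein, UMAMIT41 (AT3G28050), annotated as a transporter, AT2G05790 and AT4G16260, glycosyl hydrolases, AT5G44020, an acid phosphatase by its annotation, AT1G30260, and RNS1 above. Their log2 fold changes ran from −2.68 for RNS1 to −0.63 for AT4G16260.

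Genes of the root and its surface were lower by their medians, with few calls. Of 8 root hair genes none was called, the median log2 fold change was −0.95 and 7 of the 8 were negative. They summed to 235 to 254 CPM at 0 µM, 43.3 to 69.8 CPM at 10 µM and 32.2 to 43.4 CPM at 100 µM, so that most of the difference lay below 10 µM. LRX1 (AT1G12040), a leucine-rich repeat extensin of the root hair wall, measured 20.6, 18.7 and 20.8 CPM, 1.41, 2.36 and 1.85 CPM and 0.358, 0 and 0.477 CPM at these doses (log2 fold change from 10 to 100 µM −2.53 ± 0.72, adjusted p = 0.0563). Of 12 root transport and endodermis markers PIP1;1 fell and the others were not called (median −0.32), and of 6 extensins none was called and all were negative (median −0.76). Among 46 genes whose product is annotated as of the peroxidase superfamily, a list added after the data were seen, 5 fell, AT1G30870, AT5G64100 and DOX1 among them, and 2 rose, with a median of −0.36. The count of falls ran from 3 to 6, and that of rises from 1 to 2, when single libraries were left out.

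Among 19 xyloglucan endotransglucosylases, which cut and rejoin a wall polymer, XTH7 (AT4G37800) fell by 0.91 ± 0.19 on the log2 scale and XTH30 (AT1G32170) rose by 0.63 ± 0.14. XTH7 lost its call without 100b or 100c and XTH30 without 10a or 100c (adjusted p from 0.00196 to 0.07 and from 0.00408 to 0.0796). Over those fits 0 to 4 members of the family fell. None of 12 alpha-expansins was called.

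Genes of photosynthesis and growth gave few calls. Of 15 light-harvesting proteins Lhca6 (AT1G19150) fell, by 0.93 ± 0.23 on the log2 scale, a call lost without 10c, 100b or 100c (adjusted p from 0.0111 to 0.121), and 0 to 3 of the 15 fell when single libraries were left out. None of 14 genes of carbon fixation, 14 of tetrapyrrole synthesis, 12 Aux/IAA repressors of auxin signalling and 13 of the endoplasmic reticulum's chaperones and unfolded protein response was called, and their medians lay between −0.13 and 0.19. Of 10 clock genes BOA (AT5G59570) was called, at a log2 fold change of 0.57 ± 0.16 (adjusted p = 0.0498), and lost that call in 5 of the 6 fits with 1 library left out (adjusted p from 0.0473 to 0.188).

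Read counts of the organelle genes leaned upwards with few calls. All genes of a list come from the same libraries, so their signs are not independent of each other. Whether libraries of 3′ ends measure organelle transcripts as they do nuclear ones was not tested. Of 29 genes encoded in the mitochondrion 25 had a positive log2 fold change, the median was 0.48, and 2 were called higher, among them ATMG01390 at 661, 769 and 575 CPM at 10 µM and 1120.4, 1038 and 1267 CPM at 100 µM (log2 fold change 0.77 ± 0.13, adjusted p = 0.00192). Of 64 genes encoded in the plastid 47 had a positive log2 fold change, 2 were called higher and the median was 0.36. Leaving out single libraries moved the counts called higher from 2 to 4 and from 1 to 3. Genes called higher were 6.9% of the mitochondrial and 3.12% of the plastid list, against 2.98% of all genes tested. Over all 13307 genes 6424 had a positive log2 fold change. ATCG00490 measured 87, 65.6 and 72 CPM and 128, 302 and 99.3 CPM, with 100b apart from the rest, and lost its call without it, and without 10b or 10c (adjusted p from 0.00363 to 0.194). The other plastid gene called, ATCG00910, had 0 reads in each library at 10 µM and 32, 0 and 5 reads at 100 µM. Its doses overlapped at 0 (adjusted p = 0.0404), and it was called in 1 of the fits that left out 1 library.

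Among 281 ribosomal protein genes, a list added after the data were seen, 13 fell (4.63%, against 1.50% of all genes tested). None rose and the median was 0.03. The count of falls ran from 0 to 40 and that of rises from 0 to 16 when single libraries were left out. Of 8 genes in common use as references none was called, the median log2 fold change was −0.60 and 2 were positive. Over the fits that left out 1 library, 0 to 2 of them were called lower. The TMM factors were 1.06 to 1.08 at 10 µM and 0.906 to 0.999 at 100 µM, and a part of the scaling in this lean was not tested. The actin genes ACT2 (AT3G18780) and ACT8 (AT1G49240) spread widely. ACT2 measured 306, 151 and 126 CPM at 10 µM and 133, 13.5 and 32.9 CPM at 100 µM, and ACT8 197, 88.9 and 92.3 CPM and 85.5, 21 and 17.2 CPM. Replicate 1 was the highest library of each dose for both, and the adjusted p was 0.103 and 0.0515. It ran from 0.00075 to 0.357 and from 9.47e-05 to 0.238 when single libraries were left out, and was under 0.05 without 100a for both genes and without 10b for ACT8.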

How the data were processed

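Total RNA of whole seedlings was made into bulk MARS-seq libraries, which read 3′ ends. As the study's methods and the labels state, the authors used bcl2fastq 2.17.1.14, trimmed reads with cutadapt 1.8.3, mapped them with STAR to Araport 11, counted them with HTSeq-count and kept genes with at least 5 reads in at least 1 sample. The deposited raw read counts of 13307 genes were used here. The DESeq2-normalized signal and regularized log2 values, which the authors made from these counts, and their own fold changes and p-values were not used.

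Counts of all 12 libraries were fitted together in edgeR 4.0.16 (R 4.3.3, quasi-likelihood, TMM, a mean per dose, 8 residual degrees of freedom, two-sided, Benjamini-Hochberg adjustment over all genes, threshold 0.05), after a test on simulated counts. SE is that of the log2 fold change. Contrasts were 100 minus 10 µM, and that step minus the step from 0 to 10 µM. Alternatives were other scalings and filters, DESeq2 1.42.0, the 6 libraries alone, a replicate block, a 2-fold minimum, and libraries left out. Genes were named by rule: the 15 largest rises and 15 largest falls that were called, averaged 10 CPM or more in the group where they were higher and did not overlap between doses, the study's markers, and up to 4 list members by smallest p. The members and lists were chosen with earlier results of these data known. RefSeq gave symbols for 13214 identifiers (99.3%). One gene named by the rule, with the list that holds it, is not reported here.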

Additional observations from a re-analysis of the deposited data

How the results depend on the processing

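Counts of genes called higher and lower at 100 µM moved most with the libraries used. They were 124 and 8 with only the 6 libraries of the 2 doses, and 225 and 348 with library totals. At 2-fold or more they were 133 and 154, so that lower genes outnumbered higher ones. Without the 3 libraries 10a, 100a and 400b together they were 580 and 608. Leaving out 1 library gave 203 to 698 higher and 21 to 832 lower genes, and 1 to 72 larger and 25 to 664 smaller steps. Smaller and larger steps numbered 302 and 26 without those 3 libraries, and larger steps 3 with library totals. The replicate block gave 402 higher and 257 lower genes and 11 larger and 121 smaller steps; the correlations of same-numbered libraries were 0.419, 0.0439 and −0.00517, so the numbers were not taken to pair the samples, and replicate 1 alone correlated best with its own number, as a hint from the data. DESeq2 called 407 higher and 227 lower. MYBL2 turned direction, to 0.81 without replicate 10a, 0.013 without 100a and 1.18 without the 3 libraries (−0.78 to 0.81 over all fits with 1 library left out), and AT1G59860 to 0.034 without the 3 libraries. The cause of these shifts was not tested. Depth limits the low genes, since 1 read was worth 0.262 to 0.615 CPM in the 6 libraries.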

Other observations

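A few genes called higher were at or close to 0 reads at 10 µM. Of the 9 called genes with 3 or fewer reads over the 3 libraries at 10 µM, 4 kept their call in every fit that left out 1 library, and they are described here after their values were seen. AT1G04047, a long non-coding RNA, had 0 reads in each library at 10 µM and 16, 8 and 15 reads at 100 µM. AT1G09433, another, had 0, 0 and 2 reads and then 24, 14 and 19. AT1G19025, annotated as a metallo-beta-lactamase family protein of DNA repair, had 1, 0 and 0 reads and then 17, 16 and 25. AT5G10710, annotated as a centromere protein, had no read in any of the 3 libraries at 10 µM and 24, 16 and 21 at 100 µM.

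Each of these 4 genes lies on the same strand just after a gene that was also called higher. AT1G04047 starts 247 bases after ATAF1 (log2 fold change 0.79), AT1G09433 886 bases after HSP101 (1.12) and AT5G10710 734 bases after AT5G10695 (0.88), while AT1G19025 overlaps AT1G19020 (1.21) by 32 bases in TAIR10.1. Of 13208 tested genes with a position, 82 (0.621%) lie within 1000 bases after a called higher gene on the same strand. The share was 14 of 392 (3.57%) among genes called higher and 4 of 8 (50%) among those with 3 or fewer reads at 10 µM. Whether these reads belong to the genes they were counted for or to the neighbour before them was not tested.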
